A study of Homo sapiens with 12 samples.

Results

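The liver-enriched transcription factors HNF4A, HNF4G, FOXA1, FOXA2, FOXA3, ONECUT1, ONECUT2 and PROX1 were followed in HepG2 cells, an established human hepatoma line. For each of the 8 genes, out of 28256 gene symbols, the transcript row with the highest summed count over 12 RNA sequencing libraries was used, and all 8 were among the 13166 genes tested. The cells, labelled wild type (WT), spent 24 h in medium with charcoal-stripped serum, which is low in steroids, and then 24 h in 1 of 4 conditions with 3 libraries each. Vehicle cells received DMSO at 0.1%, Dex cells the synthetic glucocorticoid dexamethasone at 50 nM, KLA cells a compound labelled KLA at 100 ng/µl as the labels write it, and DexKLA cells both agents. The labels do not spell out KLA, and they do not say whether the libraries of a group came from separate cultures. The p-values thus rest on the variation among these libraries alone, part or all of which may be technical.

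Hepatocyte identity is held by a network of transcription factors that bind each other's genes. HNF4A and its paralogue HNF4G are nuclear receptors that bind DNA as homodimers and drive genes of lipid, bile acid and glucose handling. FOXA1, FOXA2 and FOXA3 are forkhead proteins that open compacted chromatin early in liver development, and FOXA sites lie beside glucocorticoid receptor sites at many liver enhancers. ONECUT1 (HNF6) and ONECUT2 (OC2) are cut-homeodomain factors of the early liver and bile duct, and PROX1 is a homeodomain factor needed for hepatoblasts to spread, which also binds HNF4A and represses some of its targets.

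Summed counts over genes ran from 3317740 to 20933501 per library. The 3 DMSO libraries lay between 3317740 and 5277463 and the deeper class of 6 libraries, from 9289765 upward, held all 3 KLA libraries, 1 Dex library and 2 DexKLA libraries, so depth and the difference between KLA and DMSO cannot be told apart. The change in KLA against DMSO also followed the length of the transcript row across the tested genes (Spearman's rho −0.467, a description across genes, which are not independent). Within single libraries, each gene's departure from its own mean (log2 CPM) also followed row length. That rho was −0.534 in Dex replicate 2 and −0.526 in KLA replicate 3. It was −0.175 and −0.152 in KLA replicates 1 and 2, and 0.385 in DexKLA replicate 3, which are also in the deeper class. The hepatocyte marker list (8 genes, ALB and AFP among them) summed to 100010 to 114784 CPM (counts scaled to a common library total) in vehicle libraries. It came to between 129456 and 137025 CPM after Dex, between 119075 and 127372 CPM after KLA and between 124674 and 151491 CPM after both. The sum in every treated library thus lay above that in every DMSO library. ALB (61008 to 95279 CPM over all libraries) and AFP (14665 to 38953 CPM) made up most of it. The list's median log2 fold change was 0.16 with Dex, −0.04 with KLA and −0.10 with DexKLA, so the sum does not describe its other genes. The endothelial list, which matters for PROX1 since lymphatic endothelium also uses it, summed to 3.32 to 6.88 CPM with KDR, TEK and PDPN (3 of its 8 genes) at 0 in all 12 libraries. The cholangiocyte list (6 genes), which matters for the ONECUT genes, summed to 888 to 921 CPM with DMSO and 1021 to 1204 CPM with KLA. It came to 787 to 836 CPM with Dex and 782 to 894 CPM with DexKLA. SPP1 was its largest gene, at 394 to 760 CPM over all libraries, so the sum does not describe the other genes. CFTR was at 0 throughout, and KRT7 reached at most 0.43 CPM. The intestinal list (5 genes) summed to 322 to 341 CPM with DMSO, 252 to 267 CPM with Dex, 261 to 274 CPM with KLA and 227 to 332 CPM with DexKLA. The macrophage list (5 genes) ran from 41.1 to 54.6 CPM over all libraries with CD163 and MARCO at 0 throughout, and the stellate list (6 genes) from 37.4 to 54.3 CPM with COL1A2 at 0. The part of these lists in the results below was not tested.

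With KLA, 4 of the 8 genes were lower than with DMSO. HNF4A fell to 77%, FOXA1 to 75.6%, PROX1 to 76.6% and ONECUT1 to 57.3% of the vehicle level, while HNF4G, FOXA2, FOXA3 and ONECUT2 were not called. Calls were made with the quasi-likelihood test of edgeR where p, adjusted over all tested genes by Benjamini and Hochberg's method, was under 0.05. The same call in the lower direction was made for 5.94% of all tested genes (13.7% in either direction), and the median log2 fold change was −0.38 over the 8 genes and −0.02 over all genes. Among tested genes whose row was longer than the median of 3130 bases, 10.7% were called lower, against 1.21% of the shorter ones, and all 4 called factors had longer rows. In these bulk libraries, fewer cells expressing a gene and less RNA per cell cannot be told apart.

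The calls in KLA against DMSO rested on few libraries. None of the 4 remained without DMSO replicate 1, DMSO replicate 3 or KLA replicate 3, 1 remained without DMSO replicate 2 (HNF4A), and 1 remained after each library's trend on row length was removed (FOXA1). None remained when all libraries were thinned to the smallest total or when depth class entered the model. Over all genes, the thinned fit still called 1434 of 12141, with 568 of them lower. ONECUT1 was also lost without KLA replicate 1, and PROX1 without Dex replicate 1, Dex replicate 3 or DexKLA replicate 2. The sign of all 4 stayed negative in each of those fits. Over 25 other settings the adjusted p (edgeR, and DESeq2 in 1 of them) ran from 0.00639 to 0.353 for HNF4A, 0.0133 to 0.241 for FOXA1, 0.000297 to 0.852 for ONECUT1 and 0.0184 to 0.393 for PROX1.

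**Figure D1:**
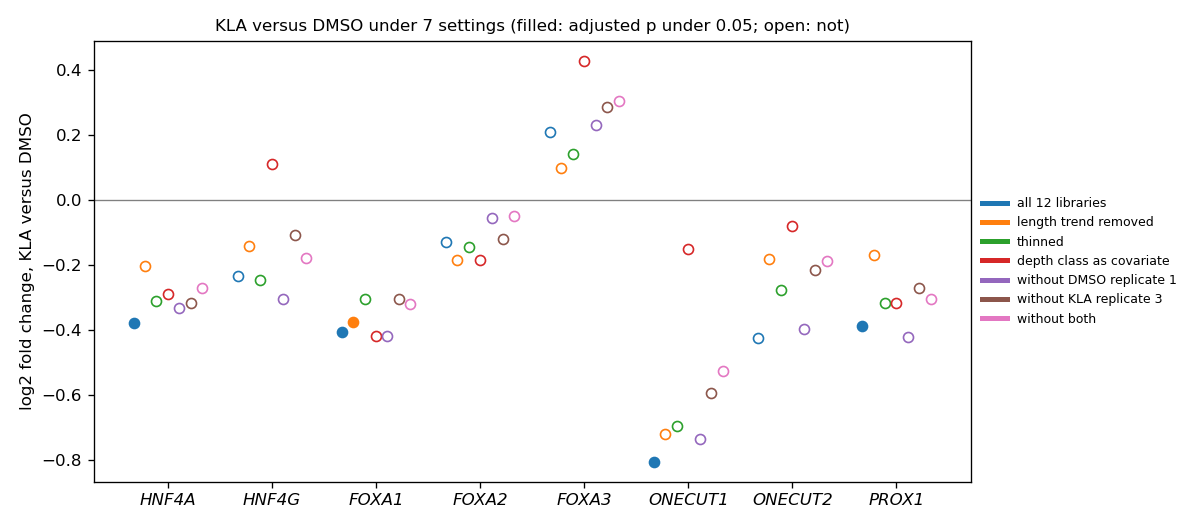
Fitted log2 fold change of each gene in KLA against DMSO (vertical axis) under 7 settings (colours). Filled points have an adjusted p under 0.05. HNF4A, FOXA1, ONECUT1 and PROX1 are filled with all 12 libraries, and FOXA1 alone stays filled with the length trend removed.

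With Dex alone none of the 8 genes was called by the same criterion, where 2.05% of all tested genes were called (1.22% higher and 0.835% lower). Their fitted log2 fold changes were below 0 in 7 of the 8, with a median of −0.25 against −0.01 over all genes, and PROX1 (unadjusted p = 0.0138) and ONECUT2 (0.0454) had the smallest p-values in edgeR's test. DexKLA against DMSO gave no call either (4.22% of all genes, 2.84% higher and 1.38% lower), although all 8 fitted values were below 0 and 4 had an unadjusted p under 0.05. The comparisons of Dex, KLA and DexKLA with DMSO share the same 3 vehicle libraries, so their common sign is not independent evidence.

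No overlap between groups was a looser measure. In KLA against DMSO, 5 of the 8 genes had all 3 treated libraries below all 3 vehicle libraries (the 4 called ones and ONECUT2), as did 18.3% of all tested genes. In DexKLA there were also 5 (HNF4A, FOXA1, FOXA2, ONECUT1 and PROX1, 12.8% of all genes) and in Dex 2 (FOXA1 and PROX1, 13.6%).

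**Figure D2:**
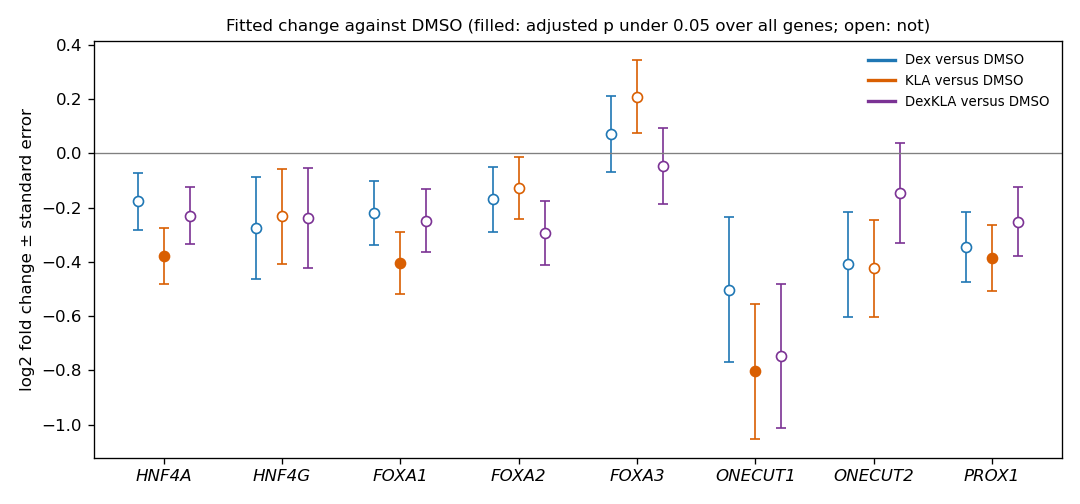
Fitted log2 fold change against DMSO with its standard error (vertical axis) for each gene in Dex, KLA and DexKLA. Filled points passed an adjusted p of 0.05 over all genes; the 4 filled points are the KLA values of HNF4A, FOXA1, ONECUT1 and PROX1, and FOXA3 is the gene whose KLA value lies above 0.

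None of the 8 genes was called when Dex was added to KLA (DexKLA against KLA, 0.653% of all genes called) or KLA to Dex (0% of all genes called, with 935 genes at an unadjusted p under 0.05). The effect of Dex averaged over cells without and with KLA called none of the 8 (1.51% of all genes). The averaged effect of KLA called none of the 8 or of any tested gene (0%), with 2532 genes and 3 of the 8 at an unadjusted p under 0.05. The DESeq2 Wald test called 618 there, out of 5253 genes to which it gave an adjusted p. Of the 8 factors it gave an adjusted p to 5 and called 1, HNF4A (adjusted p = 0.046, DESeq2). In DexKLA against Dex the DESeq2 test called no gene. In the interaction, which asks whether the effect of KLA differed with Dex present, none of the 8 was called (0.038% of all genes). DESeq2 called 705 in it, out of 8061 genes with an adjusted p, and none of the 7 factors to which it gave an adjusted p. The fitted interaction was above 0 for 7 of the 8. It was 0.32 ± 0.15 (SE) for HNF4A, 0.38 ± 0.16 for FOXA1, 0.69 ± 0.26 for ONECUT2 and 0.48 ± 0.18 for PROX1, each with an unadjusted p under 0.05 and an adjusted p between 0.118 and 0.194 in edgeR's test. A different effect of KLA with Dex present was thus not shown for any of the factors. Nor was a smaller fall with both agents than with KLA alone, since DexKLA against KLA called none of them. Across all genes the interaction followed row length (rho 0.576), more closely than any other comparison.

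**Figure D3:**
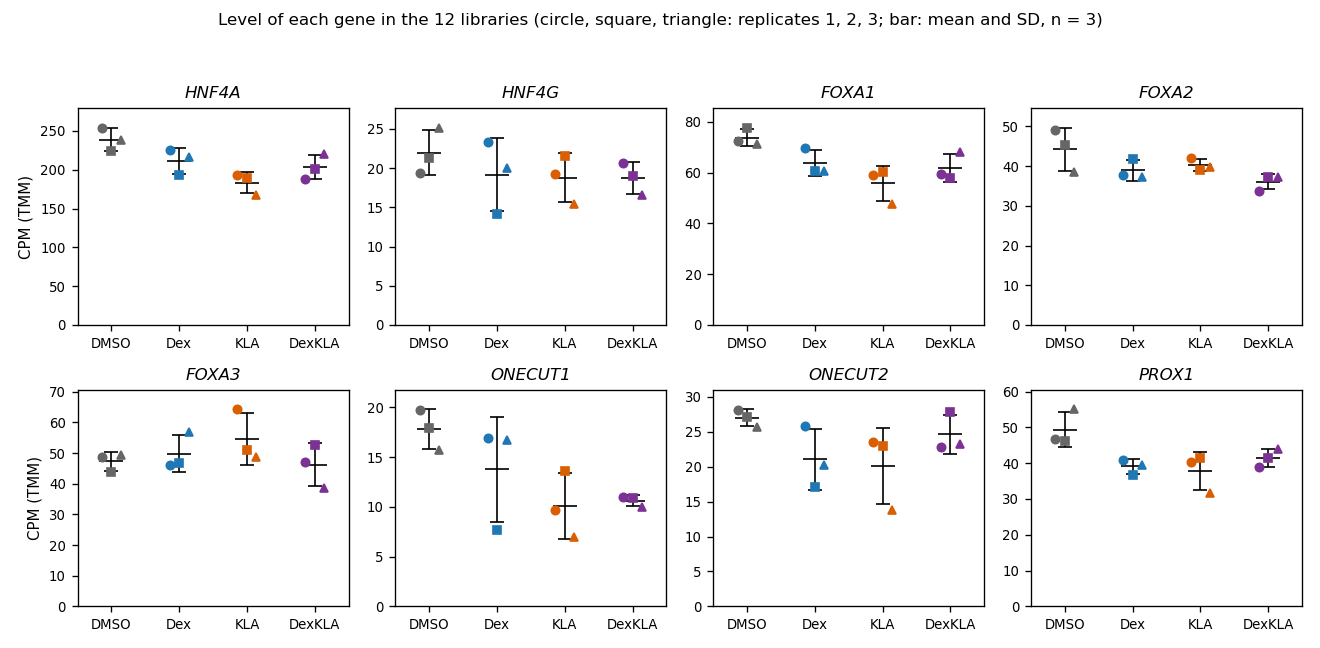
TMM-scaled CPM (vertical axes, from 0) of the 8 genes in each library, by group, with the mean and SD over 3 libraries. The KLA points of HNF4A, FOXA1, ONECUT1, ONECUT2 and PROX1 lie below every DMSO point, and Dex replicate 2 (square) is the lowest Dex library for ONECUT1.

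HNF4A was the most abundant of the 8. Its row (NM_001258355, hg38 chromosome 20, 44401239 to 44434595, + strand, 6567 bases) held 811.5 to 3914.5 counts per library. TMM-scaled levels were 254, 224 and 238 CPM in DMSO replicates 1 to 3, 225, 193 and 217 CPM after Dex, 194, 189 and 168 CPM after KLA, and 189, 201 and 219.8 CPM with DexKLA. The KLA libraries all lay below the DMSO libraries, and the Dex range overlapped both. The group means were 239 ± 14.6 CPM (SD, n = 3) with DMSO and 184 ± 13.9 CPM with KLA, a log2 fold change of −0.38 ± 0.10 (SE, adjusted p = 0.0226, edgeR). Dex gave −0.18 ± 0.10 and DexKLA −0.23 ± 0.10, with adjusted p-values of 0.346 and 0.207 in the same fit. With the length trend removed the KLA value was −0.20.

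HNF4A has 2 promoters. P1 serves the adult liver and P2 serves the fetal liver, gut and pancreas, and the transcripts from each differ in their first exon, which gives the proteins different N-termini. The RefSeq windows of 250 bases before each start (GRCh38.p14, + strand) are shown because the deposited rows separate the 2 starts. Capitals mark matches to the motifs searched.
HNF4A P1, chr20:44400989-44401238: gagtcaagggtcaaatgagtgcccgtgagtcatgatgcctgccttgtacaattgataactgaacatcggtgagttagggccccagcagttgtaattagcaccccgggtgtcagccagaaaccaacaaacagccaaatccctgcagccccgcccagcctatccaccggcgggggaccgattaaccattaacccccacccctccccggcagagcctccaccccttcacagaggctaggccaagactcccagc
HNF4A P2, chr20:44355449-44355698: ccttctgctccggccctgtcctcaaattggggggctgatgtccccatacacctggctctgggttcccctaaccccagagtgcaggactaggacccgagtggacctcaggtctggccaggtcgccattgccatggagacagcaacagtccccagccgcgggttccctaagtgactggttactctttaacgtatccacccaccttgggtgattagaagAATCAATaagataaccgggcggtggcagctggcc
The letters searched on both strands were TGTTTAC and TGTTTGC (FOXA), CAAAGTCCA (HNF4), ATCGAT and ATTGATT (ONECUT) and TGTTCT (part of the glucocorticoid receptor element). P2 held ATTGATT on the reverse strand, 34 to 28 bases before the start, a motif found in 1.98% of 35116 RefSeq promoter windows of that length. P1 held none of these letters. A match to these letters is a description of the sequence and not a site shown to be bound.

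Of the 21 rows deposited for the 8 genes, 10 belonged to HNF4A. The P1 row NM_000457 and the P2 row NM_175914 end at the same base, and in the GENCODE v29 models 9 of their 10 exon starts are the same. Their counts, 23489.5 and 22744.5 summed over the 12 libraries, thus shared most reads. The P1 row held more in all 12 libraries, but it is also the longer row, at 4710 against 4531 bases. Its higher count does not by itself show more use of P1. The difference was 18.5 to 125 counts per library, or 1.88% to 4.79% of the P1 row. By group it was 3.61% ± 1.24 for vehicle, 2.58% ± 0.64 for Dex, 3.19% ± 0.30 for KLA and 3.65% ± 0.46 for both (SD, n = 3), and these ranges overlapped between DMSO and each treated group. If reads of shared exons were counted alike in both rows, which the sources used here do not state, the difference is the reads of the P1 first exon less those of the P2 first exon.

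The HNF4A rows also differ at the 3′ end. The row NM_178850 stops at base 44424643, after the eighth exon, and encodes a different C-terminus. As a share of the long row's count it ran from 27.9% to 33.2% in vehicle libraries, from 25.2% to 28.6% in Dex libraries, from 21.4% to 30.1% in KLA libraries and from 29.8% to 32.8% in DexKLA libraries. The lowest share, 21.4%, was KLA replicate 3, and the other KLA libraries were at 29.1% and 30.1%, within the DMSO range. The long row less the short one came to 169.5, 162 and 168 CPM with DMSO and 137, 132 and 132 CPM with KLA. That difference was lower in every KLA library than in every DMSO library, as the whole row was. It is a difference of 2 deposited rows and no measure of one stretch of the gene, since the short row may hold reads of its own last exon that the long row lacks. When NM_178850 stood for HNF4A, its KLA value was −0.53 (adjusted p = 0.0312, edgeR). NM_000457, which ends at base 44432845 where the long row ends at 44434595, held 99.9% of its summed count.

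HNF4G (NM_001330561, chromosome 8, + strand, 4434 bases) was measured at far fewer counts than HNF4A. Its levels were 19.4, 21.3 and 25.1 CPM in vehicle cells, 23.3, 14.1 and 20.0 CPM in Dex cells, 19.2, 21.6 and 15.4 CPM in KLA cells, and 20.7, 19.0 and 16.6 CPM with DexKLA. The 4 groups overlapped. The KLA value was −0.23 ± 0.17 (SE) with a 95% interval from −0.59 to 0.13, which includes the size of the change in HNF4A. In each library HNF4A held 8.76 to 13.7 counts for each count of HNF4G, and the ranges of that ratio overlapped in all groups. The shorter row NM_004133, which starts downstream, held 87.5% of the summed count.

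The 3 FOXA genes took different values with KLA. FOXA1 (NM_004496, chromosome 14, 37589552 to 37595249, − strand, 3505 bases) was at 72.4, 77.5 and 71.2 CPM in DMSO libraries, 69.6, 60.6 and 60.7 CPM in Dex libraries, 59.2, 60.2 and 47.8 CPM in KLA libraries, and 59.3, 58.0 and 68.3 CPM with DexKLA. Every treated library was below every DMSO library, and KLA replicate 3 was the lowest of the 12. The mean was 73.7 ± 3.37 CPM (SD, n = 3) with DMSO and 55.7 ± 6.89 CPM with KLA, a log2 fold change of −0.40 ± 0.11 (SE, adjusted p = 0.0257, edgeR). Dex gave −0.22 ± 0.12 (adjusted p = 0.293) and DexKLA −0.25 ± 0.12 (adjusted p = 0.224) in the same edgeR fit. FOXA1 kept its call when the length trend was removed, at −0.37 (adjusted p = 0.0339, edgeR).

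The windows before the starts of FOXA1 and ONECUT1 are shown because both genes were called lower with KLA and their promoters can be set beside P1 of HNF4A (RefSeq, GRCh38.p14, both on the − strand and printed 5′ to 3′ of that strand). Capitals mark a motif match, and the ONECUT1 window has none.
FOXA1, chr14:37595250-37595499: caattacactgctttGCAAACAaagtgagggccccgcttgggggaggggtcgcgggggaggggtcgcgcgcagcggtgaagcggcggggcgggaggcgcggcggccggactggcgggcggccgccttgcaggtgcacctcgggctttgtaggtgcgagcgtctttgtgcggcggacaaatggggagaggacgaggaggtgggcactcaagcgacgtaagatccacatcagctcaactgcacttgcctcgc
ONECUT1, chr15:52790337-52790586: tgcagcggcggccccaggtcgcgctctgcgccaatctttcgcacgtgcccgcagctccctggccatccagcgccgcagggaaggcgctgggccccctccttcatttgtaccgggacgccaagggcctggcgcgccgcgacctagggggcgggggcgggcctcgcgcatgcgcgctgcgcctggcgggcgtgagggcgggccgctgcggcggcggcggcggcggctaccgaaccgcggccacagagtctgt
The FOXA1 window held the FOXA letters TGTTTGC on the reverse strand at 235 to 229 bases before the start, as do 3.23% of all windows. The G and C content was 67.2% for FOXA1 and 76.8% for ONECUT1, against 58.0% for P1 and 58.4% for P2 of HNF4A and a median of 58.0% over all windows. The ratio of observed to expected CpG was 0.977 for FOXA1 and 1.00 for ONECUT1 but 0.396 for P1 and 0.377 for P2, with a median of 0.558 over all windows. The 3 genes called lower that have an entry thus had no searched motif in common and differed in base composition. The other windows matched in the table were those of FOXA3 and ONECUT2, which held none of the letters searched, and 5 of the 8 genes had an entry.

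FOXA2 (NM_021784, chromosome 20, 22581004 to 22584463, − strand, 2419 bases) was at 49.0, 45.2 and 38.4 CPM in vehicle libraries, 37.7, 41.9 and 37.2 CPM after Dex, 42.0, 39.1 and 39.9 CPM after KLA, and 33.8, 37.1 and 37.1 CPM with DexKLA. The KLA libraries lay inside the DMSO range, and the DexKLA libraries below both. The KLA value was −0.13 ± 0.11 (SE, adjusted p = 0.470, edgeR), with a 95% interval from −0.37 to 0.11. The DexKLA value was −0.29 ± 0.12 and missed the threshold (adjusted p = 0.155, edgeR). In GENCODE v29 an exon of the gene AL121722.1 on the same strand overlaps an exon of FOXA2, so reads of this pair cannot be separated there. LINC00261, the noncoding RNA gene beside FOXA2, gave −0.07 ± 0.10 with KLA and −0.26 ± 0.10 with DexKLA (adjusted p = 0.651 and 0.136, edgeR).

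FOXA3 (NM_004497, chromosome 19, 45864326 to 45873797, + strand, 1919 bases, the shortest row of the 8) was the one gene with a fitted KLA value above 0. It was at 48.7, 43.8 and 49.3 CPM in vehicle cells, 46.0, 46.7 and 56.7 CPM in Dex cells, 64.2, 50.9 and 48.7 CPM in KLA cells, and 47.1, 52.7 and 38.7 CPM with DexKLA. The groups overlapped, and KLA replicate 1 was the highest of the 12. The KLA value was 0.21 ± 0.13 (SE, adjusted p = 0.297, edgeR), and 0.10 with the length trend removed. Within a library, FOXA3 held 0.564 to 0.696 counts for each FOXA1 count with DMSO, 0.847 to 1.08 with KLA, 0.661 to 0.935 with Dex and 0.567 to 0.906 with DexKLA. The KLA and DMSO ranges of that ratio did not overlap, while those of the other FOXA ratios did. FOXA1 over FOXA2 ran from 1.47 to 1.84 with DMSO and from 1.20 to 1.54 with KLA, and FOXA3 over FOXA2 from 0.968 to 1.28 and from 1.22 to 1.53. None of these ratios was tested. Both genes differ in row length, and the ratio needs no scaling between libraries but can still carry a length trend.

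**Figure D4:**
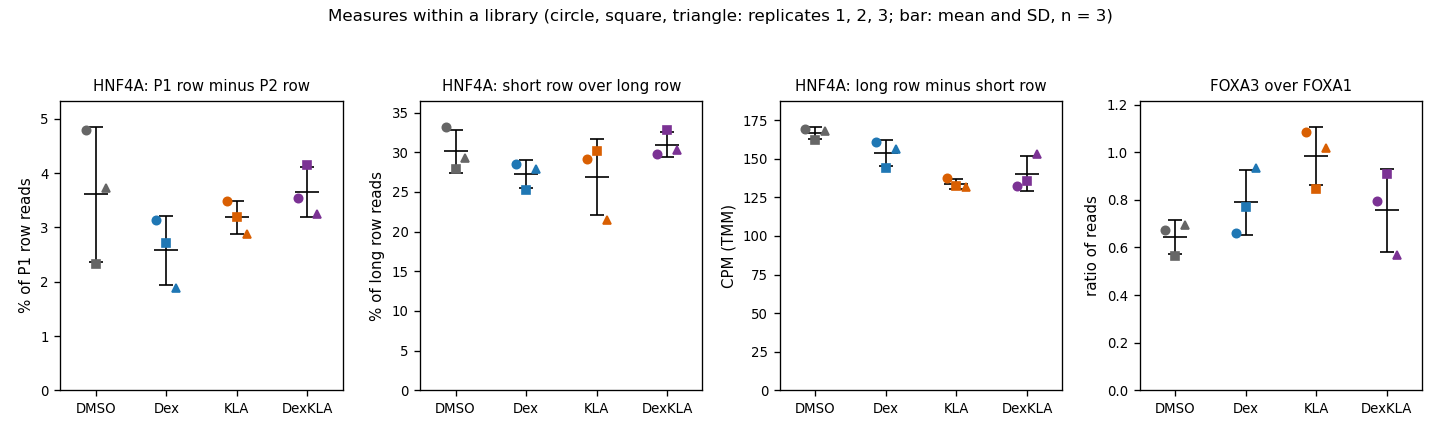
Measures taken within each library, by group, with the mean and SD over 3 libraries. From left to right: the excess of the HNF4A P1 row over the P2 row (% of P1 row counts), the short HNF4A row as % of the long row, the long row less the short one (CPM), and FOXA3 counts over FOXA1 counts. The KLA and DMSO points are apart in the right pair of panels and overlap in the left pair.

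ONECUT1 had the largest fitted change of the 8 genes with KLA, with DexKLA and with Dex, where it was −0.50 ± 0.27 (SE, adjusted p = 0.290, edgeR). Its row (NM_004498, chromosome 15, 52755055 to 52790336, − strand, 4346 bases) held 47 to 282 counts per library, the lowest summed count of the 8. It was at 19.7, 17.9 and 15.7 CPM in DMSO libraries, 16.9, 7.68 and 16.7 CPM in Dex libraries, 9.68, 13.6 and 6.98 CPM in KLA libraries, and 11, 10.9 and 9.97 CPM with DexKLA. Every KLA and DexKLA library lay below every DMSO library, and Dex replicate 2, the deep library of its group, stood apart from the other 2 Dex libraries. Dex replicate 2 and KLA replicate 3, the lowest library of its group here, also had the strongest length trends of all libraries. The mean fell from 17.8 ± 2.00 CPM (SD, n = 3) with DMSO to 10.1 ± 3.34 CPM with KLA, a log2 fold change of −0.80 ± 0.25 (SE, adjusted p = 0.0356, edgeR). DexKLA averaged 10.6 ± 0.56 CPM, at −0.75 ± 0.26 with an adjusted p of 0.105 (edgeR), and passed the threshold without Dex replicate 2 or without KLA replicate 3. With depth class in the model the KLA value was −0.15. All KLA libraries were in the deeper class and all DMSO libraries in the shallower one. The depth term of that fit thus came from the Dex and DexKLA libraries alone, where Dex replicate 2 stood apart. The fit cannot tell depth and KLA apart. The noncoding row NR_073510, which starts further downstream, held 51.4% of the summed count.

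ONECUT2 (NM_004852, chromosome 18, 57435374 to 57491298, + strand) has a row of 16429 bases, longer than 99.6% of the tested genes. It was at 28.2, 27.1 and 25.8 CPM in vehicle libraries, 25.8, 17.1 and 20.2 CPM after Dex, 23.6, 22.9 and 13.8 CPM after KLA, and 22.8, 27.9 and 23.3 CPM with DexKLA. The KLA libraries lay below the DMSO libraries, and KLA replicate 3 was far below the other pair. The KLA value was −0.42 ± 0.18 (SE, adjusted p = 0.111, edgeR) and −0.18 with the length trend removed, and −0.21 without KLA replicate 3. For each ONECUT1 count there were 1.45 to 1.63 ONECUT2 counts in vehicle libraries, 1.21 to 2.22 after Dex, 1.68 to 2.43 after KLA and 2.08 to 2.56 after both. The KLA and DexKLA ranges lay above the DMSO range and the Dex range spanned it, and the ratio was not tested. ONECUT3, the third gene of the family, was left untested, with 0 to 6 counts in any library.

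PROX1 (NM_001270616, chromosome 1, 213987973 to 214041504, + strand, 8455 bases) was at 46.7, 46.3 and 55.0 CPM in vehicle cells, 41.0, 36.8 and 39.6 CPM in Dex cells, 40.4, 41.4 and 31.6 CPM in KLA cells, and 38.8, 41.6 and 43.9 CPM with DexKLA. All 9 treated libraries lay below the 3 DMSO libraries. Taken 1 group at a time, such a gap held for 13.6% of all tested genes with Dex, 18.3% with KLA and 12.8% with DexKLA. The share for all treated groups together was not counted. The mean was 49.3 ± 4.91 CPM (SD, n = 3) with DMSO and 37.8 ± 5.38 CPM with KLA, a log2 fold change of −0.39 ± 0.12 (SE, adjusted p = 0.0407, edgeR). The Dex value was close to it, at −0.34 ± 0.13, but was not called (adjusted p = 0.136, edgeR). The KLA value of PROX1 was −0.17 with the length trend removed. PROX1-AS1 overlaps an exon of PROX1 on the other strand, and since the strand of the libraries is not given in the sources used here, reads of the pair cannot be told apart there. PROX1-AS1 itself gave −0.09 ± 0.44 with KLA.

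Levels were compared between genes per kilobase of row. With DMSO the order was HNF4A (36.3 ± 2.23 CPM per kb, SD, n = 3), FOXA3 (24.6 ± 1.59), FOXA1 (21.0 ± 0.96), FOXA2 (18.3 ± 2.22), PROX1 (5.84 ± 0.58), HNF4G (4.95 ± 0.65), ONECUT1 (4.09 ± 0.46) and ONECUT2 (1.64 ± 0.07). HNF4A and the FOXA genes lay above the median of the tested genes, 7.44 CPM per kb, and the other 4 below it. Neighbours in this order had separate ranges over the 3 libraries except PROX1 with HNF4G and HNF4G with ONECUT1, and FOXA1 and FOXA2 nearly met (20.3 against 20.3 CPM per kb). Row length sets these values. As the last stretch of the long HNF4A row added almost no counts, the per-kilobase level of HNF4A is understated to that extent.

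Across the 12 libraries, HNF4A varied most like FOXA1 among the 8 genes (Pearson's r of log2 CPM 0.889) and next most like PROX1 (0.832) and ONECUT1 (0.816). FOXA2 and FOXA3 stood apart, with r from −0.140 to 0.369 and from −0.395 to 0.152 against the other genes. Over all tested genes, those most like HNF4A were TM9SF4 (0.971), ERAP1 (0.961) and USP22 (0.961), and those most like FOXA1 were POM121C (0.956), DCTN4 (0.948) and UTP20 (0.946). ONECUT1 was most like CRK (0.954), MEGF9 (0.919) and ARAP1-AS2 (0.915), ONECUT2 most like BACH1 (0.963), BMPR2 (0.961) and LRP6 (0.959), and PROX1 was close to PEG3 (0.960) and SMARCC1 (0.960). HNF4G was most like TSSK4 (0.919), NR3C1, the glucocorticoid receptor (0.900), and WDR43 (0.878). FOXA2 was most like RBP4 (0.901), EXD3 (0.898) and PRR14 (0.887), and FOXA3 most like EFNA1 (0.885), ARHGEF16 (0.871) and GSDMB (0.857). These values describe 12 libraries that share groups, depth and a length trend, and carry no p. These neighbours of ONECUT2 and PROX1 had rows of 5803 to 12053 bases and those of FOXA2 and FOXA3 rows of 1062 to 2805 bases.

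Of 19 tested coregulators that HNF4A works with at its target genes, 10 were called lower with KLA and none higher (5.94% of all genes lower), with a median log2 fold change of −0.45. The smallest p-values belonged to NCOA1, a p160 coactivator (13.9 ± 1.60 CPM with DMSO, 7.33 ± 1.56 with KLA, SD, n = 3), and MED1, the Mediator subunit that binds nuclear receptors (79.4 ± 12.3 and 50.5 ± 8.62 CPM). SMARCA4, the ATPase of the SWI/SNF complex, fell by 0.50 ± 0.12 on the log2 scale (SE). Dex called 2 of the 19 lower, NCOA1 at −0.85 ± 0.20 and MED1 at −0.66 ± 0.15, and DexKLA called SMARCA4 alone (−0.45 ± 0.13), where 0.835% and 1.38% of all genes were called lower. With Dex, NCOA1 was called in 7 and MED1 in 8 of the 12 fits that left out 1 library, both being lost without DMSO replicate 1 or 3 or Dex replicate 2 or 3 and NCOA1 also without DMSO replicate 2. With DexKLA, SMARCA4 was called in 4 of 12 and lost without DMSO replicate 1 or 2, any Dex replicate, KLA replicate 2, or DexKLA replicate 1 or 2. Over all settings the Dex count ran from 0 to 7 and the DexKLA count from 0 to 3. The KLA count was 3 of 19 with the length trend removed, 4 without DMSO replicate 3 or KLA replicate 3 and 0 without DMSO replicate 1 or with depth class in the model.

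Of 28 other hepatocyte transcription factors tested, 5 were called lower with KLA, 3 with Dex and 4 with DexKLA, and none higher, against 5.94%, 0.835% and 1.38% of all genes called lower. CEBPA, which drives hepatocyte maturation, was at 337 ± 40.9 CPM in vehicle cells (SD, n = 3), 187 ± 12.9 CPM after Dex, 247 ± 29.6 CPM after KLA and 178 ± 22.9 CPM after both. It was called in all 3 comparisons and, with Dex and with DexKLA, in each of the 12 fits that left out 1 library. With KLA it was called in 9 of 12 and lost without DMSO replicate 1 or 3 or KLA replicate 3. NR1H4, the bile acid receptor, fell with Dex by 0.66 ± 0.15 on the log2 scale (SE) and with DexKLA by the same amount. The Dex call of NR1H4 was kept in 8 of 12 such fits and lost without DMSO replicate 1 or 3 or Dex replicate 2 or 3, and its DexKLA call in 9, lost without DMSO replicate 1 or 3 or DexKLA replicate 2. CREB3L3, a hepatocyte stress and lipid factor, fell in all 3 comparisons (19.4 ± 5.48 CPM with DMSO and 10.4 to 11.5 CPM with treatment). Its Dex call was kept in 5 of 12 fits and lost without DMSO replicate 1 or 3, any Dex replicate, KLA replicate 1 or DexKLA replicate 2. Its KLA and DexKLA calls were each kept in 10, lost without DMSO replicate 1 and without KLA replicate 3 or DexKLA replicate 1, respectively. HLF, a PAR bZIP factor, and PPARA, the fatty acid receptor, fell with KLA by 0.45 ± 0.10 and 0.65 ± 0.17. The KLA count of this list was 13 with library size alone, a fit that called 1719 of all 13166 genes lower. It was 8 with no filter (916 of 19916 genes lower) or without KLA replicate 1, and 2 without DMSO replicate 3. It was 1 without KLA replicate 3 and 0 without DMSO replicate 1 or with depth class in the model. Over all settings the Dex count ran from 1 to 6 and the DexKLA count from 1 to 8.

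Among relatives of the 8 factors by protein family, 24 were tested and 5 were called lower with KLA (5.94% of all genes). Among them were the orphan nuclear receptor NR2F2 (19.1 ± 1.05 CPM with DMSO and 13.7 ± 0.45 CPM with KLA, SD, n = 3) and the forkhead genes FOXK2, FOXO3 and FOXN3. The forkhead gene FOXQ1 fell with Dex from 82.7 ± 4.08 to 53.5 ± 3.67 CPM (SD, n = 3) and was called with DexKLA as well. NR2F2, which can compete with HNF4A for its sites, was also called with DexKLA and is counted in the preceding list as well. Dex thus called 1 of the 24 lower and DexKLA 2, where 0.835% and 1.38% of all genes were called lower. Of 12 fits that left out 1 library, FOXQ1 was called in 11 with Dex and 8 with DexKLA. NR2F2 was called in 7 with DexKLA. Over all settings the Dex count ran from 0 to 3 and the DexKLA count from 0 to 6. The KLA count was 10 with library size alone, where 1719 of all 13166 genes were called lower. It was 3 without KLA replicate 2 or DexKLA replicate 2, 2 without Dex replicate 3, and 1 without DMSO replicate 2 or after thinning. It was 0 with the length trend removed, with depth class in the model, or without DMSO replicate 1, DMSO replicate 3 or KLA replicate 3.

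The genes taken from textbooks as liver targets of HNF4A, FOXA and ONECUT factors did not move one way. With KLA, 4 of 28 tested were called lower and 1 higher (5.94% of all genes were called lower and 7.78% higher), and the list's median was 0.10. G6PC, the last enzyme of glucose release, fell from 90.3 ± 30.5 to 41.6 ± 8.87 CPM (SD, n = 3), and PCK1, an early enzyme of gluconeogenesis, from 56.2 ± 16.9 to 31.3 ± 4.14 CPM. CYP8B1, a bile acid enzyme, and APOB, the protein of VLDL, fell by 1.06 ± 0.29 and 0.70 ± 0.20 on the log2 scale (SE). CYP8B1 was at a low level, 4.82 ± 0.39 CPM with DMSO and 2.27 ± 0.76 CPM with KLA (SD, n = 3). Of the 12 fits that left out 1 library, the KLA calls of G6PC and PCK1 were kept in 11 each, of APOB in 9 and of CYP8B1 in 8. AFP, the fetal albumin-like protein, rose from 15269 ± 1379 CPM with DMSO to 21765 ± 777 CPM with KLA, and reached 33498 ± 1749 CPM with Dex. Dex also raised APOC2 (261 ± 5.58 to 413 ± 62.4 CPM) and lowered PCK1, and DexKLA called the same 3 genes. Over all genes, Dex called 1.22% higher and 0.835% lower, and DexKLA 2.84% higher and 1.38% lower. AFP was called with Dex and with DexKLA in each of the 12 fits that left out 1 library. APOC2 was called in 12 such fits with Dex and 9 with DexKLA, and PCK1 in 10 with each. The KLA count of lower targets was 2 without KLA replicate 3 and 6 with the length trend removed (415 of all 13166 genes lower). It was 7 with library size alone (1719 genes lower) and 0 without DMSO replicate 1 or with depth class in the model.

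The 4 tested noncoding RNAs named after or beside these genes were not called. HNF4A-AS1 gave −0.73 ± 0.26 with KLA (adjusted p = 0.0626, edgeR), −0.43 ± 0.28 with Dex and −0.49 ± 0.28 with DexKLA. Its KLA value was called at −0.85 with library size alone and at −1.05 with the length trend removed (adjusted p = 0.0377 and 0.0261, edgeR).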

How the data were processed

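The authors' deposited file, per the file headers, held expected counts for 70507 RefSeq transcript rows in 12 libraries. Trimmomatic, BWA (0.7.17) and HOMER (4.10) with hg38 appear in the submitters' processing notes, without their roles. How the authors made these expected counts, which come in steps of 0.5, is not stated in the labels or file, and they were rounded before testing. The 406 rows without a gene symbol (1.71% to 2.55% of a library) were left out. The row with the highest sum stood for each symbol.

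Genes were filtered with filterByExpr (minimum count 10), scaled by TMM and fitted with 1 mean per group in edgeR 4.0.16 (R 4.3.3, limma 3.58.1, the data.table package, version 1.17.8), with 8 residual degrees of freedom. Levels used prior count 2 for correlations. The model was tested on simulated data. Alternatives were the size factors and Wald test of DESeq2 1.42.0, library size alone, no filter, a replicate block, 50 reads in 3 libraries, the longest row, the compared groups alone, thinning, removal of a loess trend on length (span 0.3) and each library left out. Depth class, 2 libraries left out together and the short HNF4A row were added later. The genes, lists and tests were chosen with earlier results of these data known. From each list, up to 4 called genes per comparison were to be named by smallest p, and for each factor the 3 most correlated genes. The lowest chi-square per degree of freedom between replicates was 1.87, more than counting noise, and every library was counted on its own. Some genes that these rules would name are not reported here.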

Additional observations from a re-analysis of the deposited data

How the results depend on the processing

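Under 25 other settings, 174 of 197 counts of the 8 genes called were the same as in the fit with all libraries, and no called gene changed sign. Most of the unchanged counts were 0 in comparisons where none was called, so they say little about the 4 calls with KLA. The KLA count was 5 with library size alone and lower than 4 in many other settings. In KLA against DMSO, where 4 were called, the count was 0 after thinning, 0 with depth class as a covariate, 0 with DMSO replicate 1 and KLA replicate 3 both left out, and 1 with the length trend removed. Leaving out 1 library at a time gave 0 to 4. In DexKLA against DMSO, where none was called, 1 was called with no filter and 1 with the libraries of the 2 groups alone, and leaving out 1 library gave 0 to 1. For the mean effect of KLA, again with none called, the DESeq2 Wald test and the fit with no filter each called 1, and leaving out 1 library gave 0 to 1. For the interaction, no filter called 1. The cause of these shifts was not tested. Scaling by library size alone moved the median of all genes in KLA against DMSO from −0.02 to −0.13, and 23.7% of called genes were then higher against 56.7%; all called factors stayed lower. Over all genes, KLA against DMSO called 1806, and 5 without DMSO replicate 1, 591 without KLA replicate 3 and 1064 with the length trend removed. After thinning it called 1434 of 12141. With the replicate number as a block, 3 of the 8 genes were called in KLA against DMSO and PROX1 was not (adjusted p = 0.0648, edgeR). The numbers share no stated source, and the pairing check found same-numbered libraries with r from −0.310 to 0.172, above 0.1 in 1 of 18 pairs. Depth limits ONECUT1 and HNF4G, whose lowest counts in a library were 47 and 69.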
